A study of Homo sapiens with 2 samples.

Results

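Messenger RNAs for the 10 proteins of the Polycomb repressive complex 2 (PRC2) and the LSD1/CoREST complex, the chromatin-modifying partners of the long non-coding RNA HOTAIR, were examined in SW13 cells. The genes were chosen by symbol, whatever their level: EZH2, EZH1, SUZ12, EED, RBBP4 and RBBP7 for PRC2, and KDM1A, RCOR1, HDAC1 and HDAC2 for LSD1/CoREST. Each matched 1 row of the 23608 gene rows in the deposited table. The series holds 1 ribosome profiling library and 1 RNA sequencing library from SW13, an established human adrenal adenocarcinoma line. Both came from cells that had received plasmids for 2 murine non-coding RNAs, Mhrt779 and Hotair, 48 hours before collection. No untransfected cells were analysed here, so the effect of the added RNAs on these genes was not measured. The comparison asks how each mRNA recovered with ribosomes stood to its level in total RNA. With 1 library per assay there is no replicate check and no test of the difference.

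PRC2 methylates lysine 27 of histone H3, a mark of silenced genes. EZH2 or EZH1 is its catalytic subunit, SUZ12 and EED are needed for activity, and RBBP4 or RBBP7 binds histones. KDM1A, also called LSD1, removes methyl groups from lysine 4 of histone H3, and the scaffold RCOR1 joins it to the deacetylases HDAC1 and HDAC2. HOTAIR is known to bind both complexes through separate parts of its sequence and to bring them to silenced loci. In ribosome profiling, nuclease removes RNA that ribosomes do not cover, so that of an mRNA mostly the coding sequence is read.

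Levels are in FPKM, fragment numbers divided by transcript length and library size. The 1754 small RNA rows held 96.8% of the summed FPKM in ribosome profiling and 88.7% in RNA sequencing. Because FPKM divides by length, these are not shares of reads. The HOTAIR row, which is the human gene, had 2.92 FPKM in ribosome profiling and 612 FPKM in RNA sequencing, and its reads were not separated from those of the murine plasmid. All 8 listed adrenal cortex markers, among them the regulator NR5A1 and the steroid enzymes CYP11A1 and CYP17A1, were listed at 0 in both libraries. The keratin KRT18 had 139 FPKM in ribosome profiling and 57.2 FPKM in RNA sequencing, KRT8 had 69.7 and 41.9 FPKM, and the intermediate filament VIM had 707 and 490 FPKM in the same order. SMARCA4, a chromatin remodeller whose protein SW13 is known to lack, had 0.677 and 3.99 FPKM in ribosome profiling and RNA sequencing, and SMARCA2 had 1.75 and 1.72 FPKM.

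The sequences around the start codons of 7 of the genes are shown because initiating ribosomes read this stretch, and because these genes hold the extremes of the ratio and the 3 paralog pairs. They are 24 bases from the GENCODE 29 transcripts (GRCh38), with the start codon and the bases at -3 and +4 in capitals, counted from the A of ATG as +1.
SUZ12: ggaaccGcgATGGcgcctcagaag
EZH2: agaataAtcATGGgccagactggg
EZH1: tacagcAagATGGaaataccaaat
RBBP7: cgacgcAagATGGcgagtaaagag
RBBP4: ctgcccGccATGGccgacaaggaa
HDAC2: ggggagCccATGGcgtacagtcaa
HDAC1: gcgagcAagATGGcgcagacgcag

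SUZ12, the scaffold subunit of PRC2, stood out as the member with the lowest ribosome signal relative to its RNA. It had 2.02 FPKM in ribosome profiling and 7.39 FPKM in RNA sequencing. EZH1, the less abundant catalytic subunit, had 0.779 FPKM in ribosome profiling and 1.75 FPKM in RNA sequencing, the lowest level of the 10 genes in both libraries. EZH2 had 8.34 FPKM in ribosome profiling and 11.4 FPKM in RNA sequencing. All 3 genes were thus lower in the ribosome library as deposited. EED, which binds the methylated histone tail, went the other way, with 7.18 FPKM in ribosome profiling and 3.99 FPKM in RNA sequencing. RBBP7 also did so, with 39.5 FPKM in ribosome profiling and 18.3 FPKM in RNA sequencing. Its paralog RBBP4 had nearly equal values, 6.04 FPKM in ribosome profiling and 6.90 FPKM in RNA sequencing.

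In the LSD1/CoREST complex both deacetylases were higher in the ribosome library and the scaffold was lower. HDAC1 had 44.4 FPKM in ribosome profiling and 22.0 FPKM in RNA sequencing, the highest level of the 10 genes in both. HDAC2 had 23.1 FPKM in ribosome profiling and 9.49 FPKM in RNA sequencing. The demethylase KDM1A lay between, at 18.5 FPKM in ribosome profiling and 15.1 FPKM in RNA sequencing. RCOR1 had 6.23 FPKM in ribosome profiling and 8.89 FPKM in RNA sequencing. HDAC1 and HDAC2 also serve in the NuRD and SIN3 complexes, as do RBBP4 and RBBP7, so their levels are not those of a single complex.

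**Figure D1:**
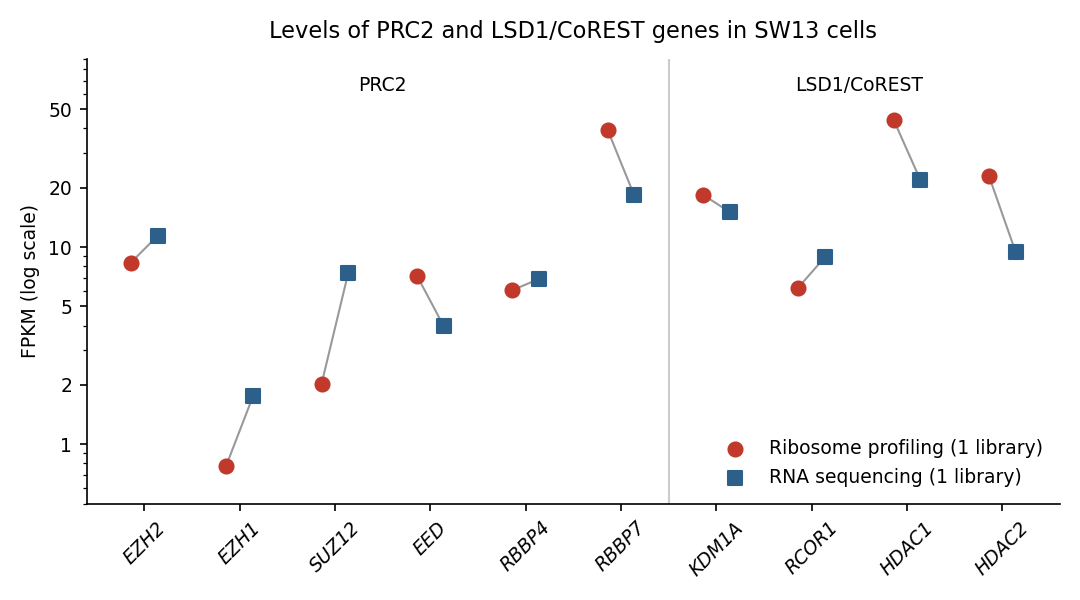
FPKM on a log axis of each gene in ribosome profiling (circles) and RNA sequencing (squares), 1 library each, joined by a line. HDAC1, HDAC2, RBBP7, EED and, by little, KDM1A have the ribosome value above the RNA value, and SUZ12 has its ribosome profiling value farthest below its RNA sequencing value, with 2.02 FPKM in ribosome profiling and 7.39 FPKM in RNA sequencing.

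By level per length, the order of the genes differed between the libraries. In ribosome profiling it ran HDAC1, RBBP7, HDAC2, KDM1A, EZH2, EED, RCOR1, RBBP4, SUZ12 and EZH1, from high to low. In RNA sequencing it ran HDAC1, RBBP7, KDM1A, EZH2, HDAC2, RCOR1, SUZ12, RBBP4, EED and EZH1. With no replicates, it cannot be said which neighbours in either order differ beyond a spread. Between the core PRC2 subunits, EED was 3.55-fold above SUZ12 in ribosome profiling, while SUZ12 was 1.85-fold above EED in RNA sequencing. EZH2 exceeded EZH1 10.7-fold in ribosome profiling and 6.53-fold in RNA sequencing.

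To compare genes, the log2 ratio of the ribosome profiling to the RNA sequencing value was computed from FPKM + 1 and set against its median over the 2734 rows with a mean FPKM of 10 or more, called the median gene. Before centring that median was 0.39, a 1.31-fold higher value in ribosome profiling. HDAC2 was 1.75-fold, RBBP7 1.60-fold, HDAC1 1.51-fold and EED 1.25-fold above the median gene on this scale. KDM1A was 1.08-fold, RBBP4 1.47-fold, EZH2 1.74-fold and RCOR1 1.79-fold below it. EZH1 was 2.02-fold below, and SUZ12 was 3.63-fold below. The pseudocount of 1 FPKM understates the ratios of low genes such as EZH1 and SUZ12.

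Set against other genes, how often members lay far from the median gene depended on the rows that set it. SUZ12 and EZH1 were the 2 of 10 members that lay 2-fold or more below it, against 31.7% of 9859 protein-coding rows with a mean FPKM of 1 or more. No member lay 2-fold or more above it, against 4.99% of those rows. By any amount, 6 of 10 members were below the median gene, against 70.7%. In the rows with a mean FPKM of 10 or more, of any class, the shares were 19.7% for 2-fold or more below and 13.1% for 2-fold or more above. When all rows from 1 FPKM up set the centre, 3 of 10 members, HDAC2, RBBP7 and HDAC1, lay 2-fold or more above it, against 14.7% of the 9859 protein-coding rows. SUZ12 was then the only 1 of 10 to lie 2-fold or more below, against 17.2%. Nothing particular to the members is read from these shares. The median centred log2 ratio was -0.33 over the 10 members and -0.52 over the protein-coding rows. It was -0.57 over the protein-coding rows whose mean FPKM lay between that of the lowest and that of the highest member. Only RBBP7, KDM1A, HDAC1 and HDAC2 reached a mean of 10 FPKM, and EZH2, with a mean of 9.88 FPKM, was the nearest below. The median centred log2 ratio was 0.64 over those 4 members and -0.82 over the 6 members below 10 FPKM. HDAC2 had a higher ratio than 92.5% of the protein-coding rows from 1 FPKM up, RBBP7 than 90.4%, HDAC1 than 88.6% and SUZ12 than 11.8%. Many of those rows have a lower level than HDAC2, RBBP7 and HDAC1, whose centred log2 ratios were 0.81, 0.68 and 0.59. Over the 2259 protein-coding rows with a mean FPKM of 10 or more, the median was 0.039 and the upper quartile 0.55.

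In the authors' deposited table none of the 10 genes was called significant, and 1.3% of the 4849 rows with the status OK were. A deposited p under 0.05 was reached by none of the 8 members with the status OK, against 14.2% of those rows. SUZ12 came nearest, with a log2 ratio of -1.87, a standard error of 1.00, p = 0.0626 and q = 0.378 in the authors' deposited table. HDAC2 followed there, with a log2 ratio of 1.28, a standard error of 0.81 and q = 0.453. EZH1 and EED carried the status NOTEST. The standard error was taken as the ratio over the test statistic of the authors' deposited table, and it holds no spread between cultures.

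**Figure D2:**
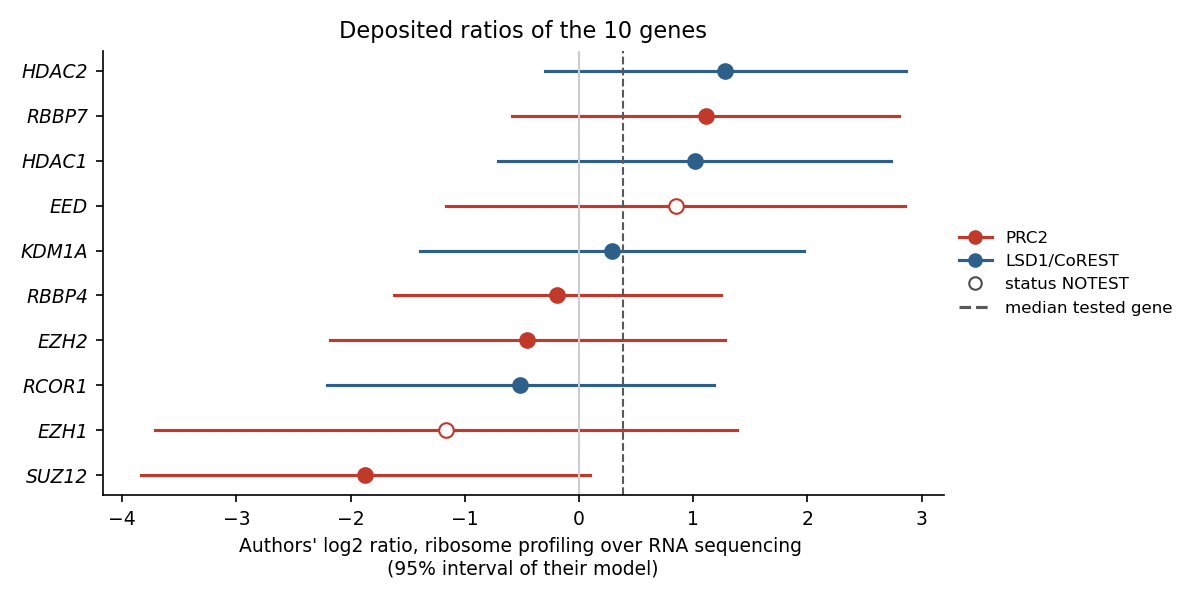
Log2 ratio in the authors' deposited table for each gene, the ribosome profiling value over the RNA sequencing value, with the 95% interval of their model; open circles have the status NOTEST and the dashed line marks the median tested gene at 0.39. All intervals include 0, and that of SUZ12, from -3.84 to 0.098, is the only 1 of the 10 that excludes the dashed line.

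The paralogs were compared as pairs through the log2 ratios of the authors' deposited table, taking their errors as independent. RBBP7 minus RBBP4 was 1.30, with a 95% interval from -0.92 to 3.52. HDAC2 minus HDAC1 was 0.27, with an interval from -2.07 to 2.61, and EZH1 minus EZH2 was -0.71, with an interval from -3.79 to 2.36. All 3 intervals include 0. Those of HDAC2 minus HDAC1 and EZH1 minus EZH2 are wide enough to hold several-fold differences in either direction. That of RBBP7 minus RBBP4 holds several-fold differences only towards a higher ratio of RBBP7. A further 4 pairs within the complexes were compared after the values were seen. SUZ12 minus RBBP7 was -2.98 in the authors' deposited table, with an interval from -5.58 to -0.38, and was the only 1 of the 7 intervals to exclude 0. SUZ12 minus EED was -2.72, with an interval from -5.53 to 0.095. The intervals were not adjusted for the number of pairs.

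The number of fragments behind the values could be narrowed down. Among the 1011 rows above 0 in both libraries with a mean below 1 FPKM, the plain ratio of ribosome profiling to RNA sequencing was most often 1.56. In 69.6% of these rows it was 1.56 times a ratio of whole numbers up to 20, within a relative tolerance of 1e-05. Equal fragment numbers in both libraries thus gave a deposited ratio of 1.56. For the members, whole numbers up to 100 were tried, within a relative tolerance of 5e-06. The smallest that give the deposited ratio were 10 fragments in ribosome profiling and 57 in RNA sequencing for SUZ12. They were 2 and 7 for EZH1, 15 and 32 for EZH2, and 15 and 13 for EED, again with ribosome profiling first. For RBBP4 they were 55 and 98, for RBBP7 83 and 60, for RCOR1 40 and 89, and for HDAC1 97 and 75. The true numbers may be multiples of these, and no pair within these limits was found for KDM1A or HDAC2.

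Those pairs give exact binomial (Clopper-Pearson) intervals for counting error alone, which would be narrower if the true numbers were multiples of the pairs. They take the fragments as independent molecules, which reads without molecular identifiers are not. The members' own values here carry no pseudocount, while the centres subtracted from them were still computed from FPKM + 1. Relative to the median gene, SUZ12 had a log2 ratio of -2.26 with a 95% interval from -3.39 to -1.28. RBBP7 had 0.72, from 0.22 to 1.22, and HDAC1 had 0.62, from 0.17 to 1.08. RCOR1 had -0.90, from -1.48 to -0.35, and RBBP4 had -0.58, from -1.08 to -0.090. These 5 intervals exclude the median gene. Those of EZH2, EED and EZH1 include it when taken from the smallest pairs, that of EZH2 with an upper limit of 0.086. With rows from 1 FPKM up as the centre, the intervals of RCOR1, from -0.93 to 0.20, and RBBP4, from -0.54 to 0.46, include it, and those of SUZ12, RBBP7 and HDAC1 still exclude it. The ratios of RCOR1 and RBBP4 also turn sign per coding length. The intervals describe these 2 libraries and not the assays in other cultures. For EZH1 the interval ran from -4.86 to 0.84, so its place below the median gene was not resolved with the smallest pair.

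Whether reads could be told apart from those of related sequences was examined with 30-base windows of each coding sequence, searched in the GENCODE 29 transcripts of all other genes. RBBP4 shared 64.1% of its 1249 coding windows, mainly with its processed copies RBBP4P1, with 42.7%, and RBBP4P2, with 28.3%. SUZ12 shared 26.5% of its 2191 coding windows, nearly all of them with its partial copy SUZ12P1. HDAC1 shared 8.24%, EED 8.02% and EZH2 4.22%. No coding window was shared for EZH1, RBBP7, KDM1A, RCOR1 or HDAC2. Over the whole transcript, untranslated regions included, HDAC2 shared 227 of its 9845 windows and RBBP4 1195 of 7914. SUZ12 shared 611 of 4462, or 13.7%, a smaller share than in its coding windows. The sources used here do not say how reads that match several loci were placed, so the values of RBBP4 and SUZ12 are uncertain.

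**Figure D3:**
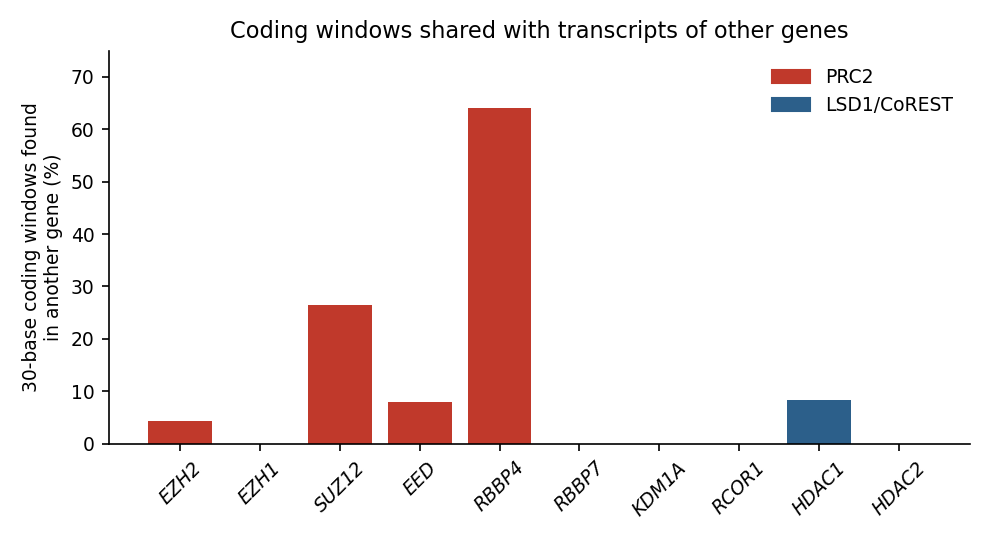
Share of the 30-base coding windows of each gene that also occur in a transcript of another gene; bars start at 0. RBBP4 reaches 64.1% and SUZ12 26.5%, while 5 genes have none.

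The paralogs themselves share little exact sequence, and none of the 3 pairs has a 30-base coding window in common. The longest exact run shared by the coding sequences is shown for RBBP7 and RBBP4, the closest pair, since it is shorter than the windows.
RBBP7 and RBBP4: gttgctgatgatcagaaacttatgat
This run has 26 bases, at coding positions 733 to 758 of RBBP7 and 736 to 761 of RBBP4. The longest shared run was 20 bases for EZH2 and EZH1 and 17 bases for HDAC2 and HDAC1.

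SUZ12P1, the copy of SUZ12, was the only pseudogene copy of a member with a row of its own. It had 4.93 FPKM in ribosome profiling and 8.43 FPKM in RNA sequencing, which is 2.08-fold below the median gene. SUZ12 lies on chromosome 17 from 30264044 to 30328057 and SUZ12P1 on the same chromosome from 29036626 to 29097068, in the coordinates of the deposited table, whose contig names are those of hg19. Summing both rows gave a centred log2 ratio of -1.47, against -1.86 for SUZ12 alone. The part that shared reads play in the SUZ12 value was not tested beyond this sum.

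The start sites printed above were not ordered by the ratio. A purine at -3 with a G at +4, the context known to favour initiation in vertebrates, was present in 6 of the 10 members, against 47.0% of 9573 protein-coding rows. SUZ12, lowest in ratio, has both bases, and HDAC2, highest in ratio, has a C at -3. RCOR1 has neither base. At least 1 upstream ATG was present in the 5-prime leader of 6 of 10 members, with 3 in EED and none in SUZ12, against 51.3% of the rows.

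Ribosomes cover mainly the coding sequence while FPKM divides by the whole transcript, so the coding share of each transcript was set beside the ratio. It was 14.9% in HDAC2, 16.1% in RBBP4, 25.3% in RCOR1, 48.5% in EZH1 and 49.4% in SUZ12. It was 54.8% in RBBP7, 59.6% in EED, 68.2% in HDAC1, 84.4% in KDM1A and 85.5% in EZH2. The shares refer to the longest principal transcript of GENCODE 29, and the sources used here do not name the transcripts behind the FPKM values. Over the 10 members, Spearman's rho between coding share and centred ratio was 0.0061. Over 9833 protein-coding rows it was 0.14, a weak relation across genes that share both libraries. HDAC2 and SUZ12 lay farthest from the medians of rows with similar coding shares among the members.

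Ribosome profiling was also divided by the coding length instead, a setting chosen after the data were seen. This raised the members of lowest coding share and lowered those of highest coding share. HDAC2 then had a centred log2 ratio of 2.57 and RBBP4 of 0.96, and RCOR1 had 0.045, close to the median gene. SUZ12 stayed low, at -2.05, while EZH2 went from -0.80 to -1.53 and KDM1A from -0.11 to -0.82. The directions of RBBP4 and RCOR1 therefore depend on the length used, and those of SUZ12, HDAC1, HDAC2, RBBP7, EED, EZH1, EZH2 and KDM1A did not turn under it. EED fell from 0.32 to 0.059, also close to the median gene.

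**Figure D4:**
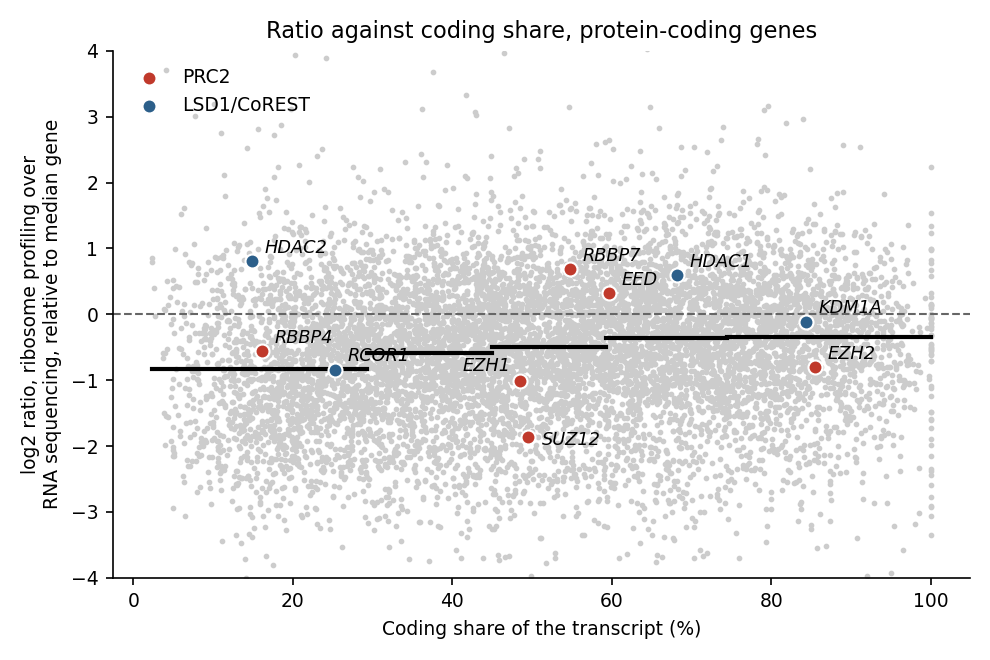
Centred log2 ratio (ribosome profiling over RNA sequencing) against the coding share of the transcript, for the 10 genes (coloured) and 9833 protein-coding rows with a mean FPKM of 1 or more (grey); black lines are medians of 5 equal groups of rows, and 42 rows lie outside the axis. SUZ12 lies well below the line of its group, and HDAC2 well above.

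The other subunits of the Polycomb and LSD1/CoREST machinery lay mostly below the median gene, as did 70.7% of protein-coding rows from 1 FPKM up. Below it by any amount were 6 of 6 PRC2 accessory, 18 of 20 PRC1 and 12 of 12 LSD1/CoREST accessory genes. Over the 86 genes of all the chromatin lists apart from the members, the median was -0.84, against -0.52 for those rows. Of these 86 genes, 36 lay 2-fold or more below and 2 above. They were not matched to other rows by level. Counts refer to genes with a mean FPKM of 1 or more, a level at which 31.7% of protein-coding rows lay 2-fold or more below the median gene and 4.99% above. Of the PRC2 accessory genes, which steer the complex to its sites, 3 of 6 lay 2-fold or more below and none above. PHF19, a reader of histone methylation named after its value was seen, had 0.424 FPKM in ribosome profiling and 13.1 FPKM in RNA sequencing, 12.9-fold below the median gene. Of the PRC1 genes, which place ubiquitin on histone H2A, 10 of 20 lay 2-fold or more below and none above. The Polyhomeotic gene PHC2 had 7.60 FPKM in ribosome profiling and 13.4 FPKM in RNA sequencing.

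Among the accessory genes of LSD1/CoREST, 4 of 12 lay 2-fold or more below the median gene and none above. The corepressor CTBP1 had 11.8 FPKM in ribosome profiling and 24.6 FPKM in RNA sequencing, 2.62-fold below. HMG20B, an HMG-box subunit, had 25.03 FPKM in ribosome profiling and 25.3 FPKM in RNA sequencing, and the zinc-finger protein ZNF217 had 11.6 and 11.7 FPKM. None of these 3 accessory genes lay above the median gene, and in the core HDAC1 and HDAC2 lay above it and KDM1A and RCOR1 below.

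NuRD and SIN3 contain the same deacetylases and histone-binding proteins. In NuRD 4 of 9 genes lay 2-fold or more below and 1 above, and in SIN3 4 of 13 were below and none above. The NuRD helicase CHD4 had 23.5 FPKM in ribosome profiling and 18.7 FPKM in RNA sequencing, and its partner MTA2 had 9.96 and 10.1 FPKM. The small RNA row SCARNA11 overlaps the CHD4 locus and had 209 FPKM in ribosome profiling and 470 FPKM in RNA sequencing. CHD3 had 353 FPKM in ribosome profiling and 33.7 FPKM in RNA sequencing, 7.80-fold above the median gene, with q = 0.173 in the authors' deposited table. The small RNA row SCARNA21 overlaps the CHD3 locus and was at 0 in ribosome profiling and 458 FPKM in RNA sequencing. The part of either small RNA in the value of its host gene was not tested.

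Of the other histone deacetylases 3 of 7 lay 2-fold or more below and none above, among them HDAC3, named after its values were seen, which was listed at 0 in ribosome profiling and had 8.59 FPKM in RNA sequencing. Of the genes that act on lysine 27 demethylation or lysine 4 methylation of histone H3, 8 of 14 lay 2-fold or more below and none above, and DPY30, a subunit of the methylation complexes, had 17.3 FPKM in ribosome profiling and 20.4 FPKM in RNA sequencing. Of the 5 histone assembly genes 1 lay 2-fold or more above and none below. This was HAT1, the acetyltransferase that works with RBBP7, with 51.6 FPKM in ribosome profiling and 14.3 FPKM in RNA sequencing, 2.62-fold above the median gene. The histone chaperone ASF1B had 11.3 and 10.5 FPKM in ribosome profiling and RNA sequencing. HOTAIR was the only gene in all these lists that was called in the authors' deposited table.

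**Figure D5:**
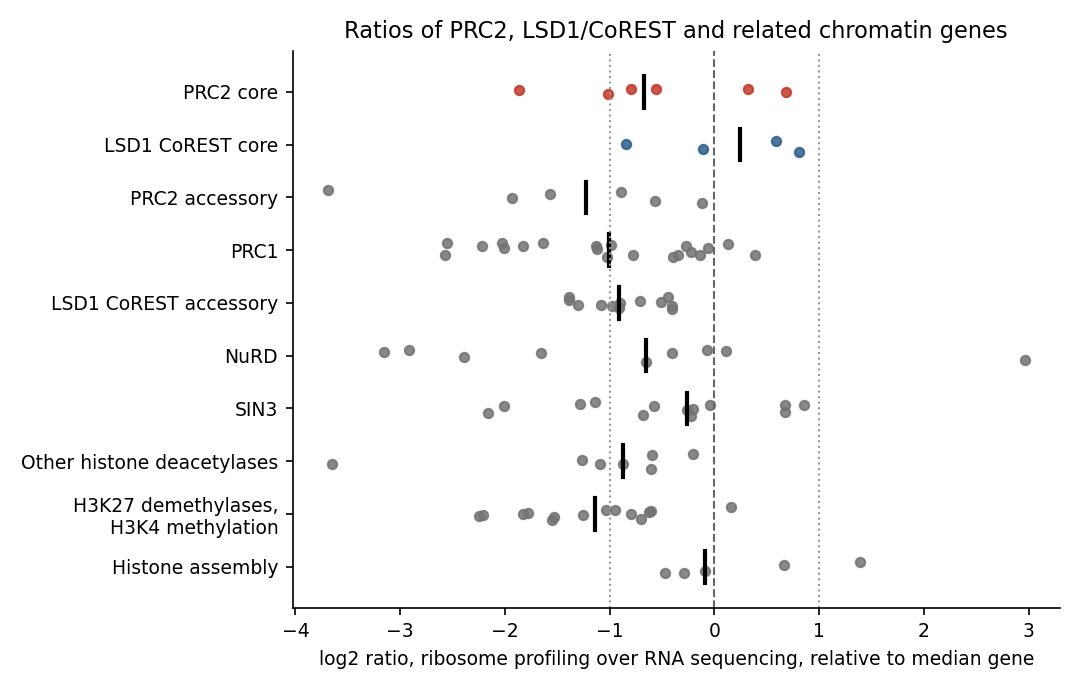
Centred log2 ratio of the ribosome profiling to the RNA sequencing value, by list, for genes with a mean FPKM of 1 or more (points, with the median as a black bar); dotted lines mark 2-fold above and below the median gene. The PRC1 median is -1.01 and the PRC2 core median -0.68, while the 4 LSD1/CoREST core genes have a median of 0.24. A mean of 10 FPKM was reached by 3 of 4 LSD1/CoREST core genes and 1 of 6 PRC2 core genes, so level and complex cannot be told apart.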

How the data were processed

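One gene table was used. It holds 1 FPKM value per library and gene, deposited by the authors, with their log2 ratio, test statistic, p-value, q-value and status. Per the submitters' processing notes, which assign no roles, hg19, mm10, bedtools 2.16.1, SAMtools 0.1.18, Bowtie2 2.0.0.6 and TopHat2 2.0.8b were used. No source used here gives the program that wrote the table, its scaling between libraries or its treatment of multiply matching reads. Per the labels' protocols, both libraries were made with a ribosome profiling kit and read from both ends at 50 bases.

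Ratios are differences of log2(FPKM + 1), ribosome profiling minus RNA sequencing, less their median over rows with a mean FPKM of 10 or more, leaving out the status FAIL and HIDATA. The step was tested on simulated data, scored only in rows with a mean FPKM of 10 or more, so the test does not cover the members below that level. No p-value was computed. Members, gene lists and the naming rule (all members; in each list the 3 most abundant genes past the filter and those of highest and lowest ratio; genes called by the authors) were chosen with earlier results of these data known. Gene classes came from RefSeq, matched by symbol for 22682 of 23608 rows, and transcripts from GENCODE 29, which all 10 members matched. Python 3.11.15, numpy 2.4.6, pandas 2.3.3 and scipy 1.17.1 were used. The start-codon contexts are GENCODE sequence and need not be those of SW13.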

Additional observations from a re-analysis of the deposited data

How the results depend on the processing

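Of 12 alternative settings, 2 were chosen after the data were seen, those per coding length. SUZ12 kept at least a 2-fold deficit in each of the 12, from -2.23 to -1.15 on the log2 scale. HDAC1, HDAC2, RBBP7 and EED stayed above the median gene in each, EED by as little as 0.059, and EZH1 and EZH2 below. Of 120 member ratios, 114 moved by less than the authors' model error, which ran from 0.73 for RBBP4 to 1.30 for EZH1. The others were HDAC2, RBBP4 and RCOR1 per coding length, at 2.57, 0.96 and 0.045 with the longest transcript and 2.63, 1.02 and 0.11 with the shortest. RBBP4 also lay above the median gene with no filter, at 0.12. KDM1A ranged from -0.82 to 0.56. The sign changed in 9 of the 120 member ratios. Several settings changed only the centre and shifted all members alike, so the 120 values are not independent. Small moves against so wide an error are thus little evidence of stability.

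Counts of members past 2-fold moved with the centre, the pseudocount and the length used. The share of protein-coding rows from 1 FPKM up that passed the same limit is given beside each. In the setting with equal FPKM sums, the sums were made equal over all rows except small RNA rows. Above were 3 members when rows from 1 FPKM up (14.7%) or all rows (18.4%) set the centre, 2 without centring (10.8%) and with equal FPKM sums (11.3%), and 1 and 2 per coding length with the longest (9.39%) and the shortest transcript (9.33%), against 0 (4.99%). Below was 1 member when rows from 1 FPKM up (17.2%) or all rows (14.9%) set the centre, without centring (20.8%), with equal sums (20.5%) and with a pseudocount of 5 (12.7%). Below were 3 with a filter of 30 FPKM (38.2%) and per coding length with the longest (36.6%) and the shortest transcript (36.1%), against 2 (31.7%). Genes past the filter and at least 2-fold above numbered 358 of 2734, against 1681 of 10853 with a filter of 1 FPKM, 2332 of 14514 with no filter, 182 of 1169 with a filter of 30, and 645 and 672 of 2734 without centring and with equal sums. Those at least 2-fold below numbered 538 of 2734, against 2127, 2180 and 261 with those 3 filters. Filters change the number of genes counted by construction. No paired analysis was possible because each assay has 1 library.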
